A study of Arabidopsis thaliana with 6 samples.

Results

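The genes described here are 10 jasmonate and wound response genes of Arabidopsis thaliana, chosen by locus identifier among the 32833 genes of the count files: VSP1, VSP2, TAT3, CORI3, CLH1, JR1, TPS04, ANAC019, ANAC055 and ANAC072. All 10 had enough counts to be among the 21374 genes tested. RNA was sequenced from 3 genotypes with 2 biological replicates each, and the question the genotypes address is whether a microProtein related to the repressor NINJA changes jasmonate signaling the way the loss of JAZ repressors does. All plants were 21 days old, grown on soil in 16 h of light and 8 h of dark at 22 °C by day and 18 °C by night, given no treatment before harvest, cut from the root and frozen. The harvest is described in the same way for every group, and whether handling differed was not tested. The wild type was Col-0. LNJ-OX plants are plants of that ecotype overexpressing LITTLE NINJA (LNJ), a synthetic microProtein derived from AFP2 with a FLAG tag, from a doubled viral 35S promoter that is active in most cells; the transgenic line behind the libraries is not given in the sources used here. The jazD line carries mutations in 10 JAZ genes.

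Jasmonate (JA) is the hormone that plants make after wounding or insect feeding. JAZ proteins, joined through NINJA to the corepressor TOPLESS, hold MYC-type transcription factors inactive, and JA causes the JAZ proteins to be degraded. In Arabidopsis leaves the response then divides. The MYC branch drives wound and anti-insect genes such as VSP2, and the ERF branch, through ORA59 and ERF1, drives the antifungal defensins of the PDF1.2 family.

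Libraries held between 10164591 and 15003290 counts on genes. Levels are given as CPM, read counts relative to the library total scaled with TMM factors, with replicate 1 before replicate 2, and changes as log2 fold changes with standard errors (SE). Changes were tested with the quasi-likelihood F test of edgeR, and p-values were adjusted by Benjamini and Hochberg's method over all genes tested. Genes whose adjusted p was under 0.01 and whose log2 fold change was above 1 or below -1 were called, and an adjusted p under 0.05 is named as the looser threshold. AFP2, the gene LNJ derives from, was at 8.19 and 11 CPM in Col-0, 63.5 and 50 CPM in LNJ-OX and 8.81 and 9.14 CPM in jazD. Of the 10 JAZ genes mutated in jazD, 7 had both jazD libraries below both Col-0 libraries, beside 21.1% of genes. Of the 9 tested, 3 were called lower, beside 0.674% of genes. JAZ10, another of them, was at 6.93 and 11 CPM in Col-0 and 54 and 69.8 CPM in jazD, so a mutated gene can still give reads. The 5 leaf markers, genes of light harvesting and carbon fixation, all had counts, with sums between 27599 and 46473 CPM. In these whole shoots, more cells of a type and more RNA per cell cannot be told apart.

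The stretch upstream of a gene is where MYC factors can bind, at the G-box CACGTG and at its relatives AACGTG and CACATG. The 300 bases before the annotated start of each gene were read from RefSeq's TAIR10.1 assembly and searched on both strands. At least 1 of these 3 hexamers was present upstream of 5 of the 10 genes, beside 25.8% of 27443 promoters of that length. The windows of 6 genes are shown, because they hold the matches or, for VSP2, because its near copy VSP1 does; capitals mark the hexamers.
VSP1, minus strand, chr5:8509202-8509501: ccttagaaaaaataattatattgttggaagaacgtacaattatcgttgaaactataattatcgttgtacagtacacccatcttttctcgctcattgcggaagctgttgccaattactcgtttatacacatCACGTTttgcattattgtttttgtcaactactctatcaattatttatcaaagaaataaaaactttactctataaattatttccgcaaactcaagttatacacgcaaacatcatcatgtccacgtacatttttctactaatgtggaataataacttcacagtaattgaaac
VSP2, minus strand, chr5:8502225-8502524: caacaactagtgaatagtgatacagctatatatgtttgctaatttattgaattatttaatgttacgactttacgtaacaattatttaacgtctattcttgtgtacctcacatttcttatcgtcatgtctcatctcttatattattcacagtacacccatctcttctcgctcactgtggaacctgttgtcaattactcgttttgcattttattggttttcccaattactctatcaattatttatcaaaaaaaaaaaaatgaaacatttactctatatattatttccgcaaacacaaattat
TAT3, minus strand, chr2:10585217-10585516: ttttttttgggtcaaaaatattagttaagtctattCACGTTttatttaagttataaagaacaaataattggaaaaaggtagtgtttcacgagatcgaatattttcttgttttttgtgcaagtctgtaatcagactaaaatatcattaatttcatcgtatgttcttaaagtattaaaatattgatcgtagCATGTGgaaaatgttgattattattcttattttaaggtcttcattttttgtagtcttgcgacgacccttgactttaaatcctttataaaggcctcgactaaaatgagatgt
CLH1, minus strand, chr1:6805093-6805392: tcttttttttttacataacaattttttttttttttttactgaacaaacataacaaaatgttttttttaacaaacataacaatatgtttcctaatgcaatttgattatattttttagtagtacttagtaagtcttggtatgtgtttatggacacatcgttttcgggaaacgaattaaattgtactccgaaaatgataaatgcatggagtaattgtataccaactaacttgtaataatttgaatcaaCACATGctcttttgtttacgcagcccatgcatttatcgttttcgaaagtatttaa
TPS04, plus strand, chr1:22523335-22523634: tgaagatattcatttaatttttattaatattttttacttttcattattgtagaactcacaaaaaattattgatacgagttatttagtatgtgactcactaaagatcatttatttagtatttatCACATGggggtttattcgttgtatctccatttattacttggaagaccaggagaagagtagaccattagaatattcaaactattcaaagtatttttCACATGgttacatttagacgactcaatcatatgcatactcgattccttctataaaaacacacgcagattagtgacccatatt
ANAC019, minus strand, chr1:19698483-19698782: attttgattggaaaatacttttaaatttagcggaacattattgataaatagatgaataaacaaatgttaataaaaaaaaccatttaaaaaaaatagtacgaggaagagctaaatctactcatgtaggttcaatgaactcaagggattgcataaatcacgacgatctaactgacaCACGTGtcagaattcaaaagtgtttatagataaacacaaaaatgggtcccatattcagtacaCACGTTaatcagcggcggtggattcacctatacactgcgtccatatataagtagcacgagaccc
The full G-box occurred upstream of ANAC019 alone among the 10, and in 7.09% of all promoters. AACGTG, written CACGTT on the other strand, was found upstream of VSP1, TAT3 and ANAC019 and in 8.71% of all promoters. CACATG, written CATGTG on the other strand, was found once upstream of TAT3 and CLH1 and 2 times upstream of TPS04, and in 13.1% of all promoters. GCCGCC, the GCC-box of ERF factors, was found upstream of none of the 10 and in 2.26% of all promoters. No matches overlapped in these windows, no window held an exon of another gene, and a match is a run of letters and not a shown binding site.

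**Figure D1:**
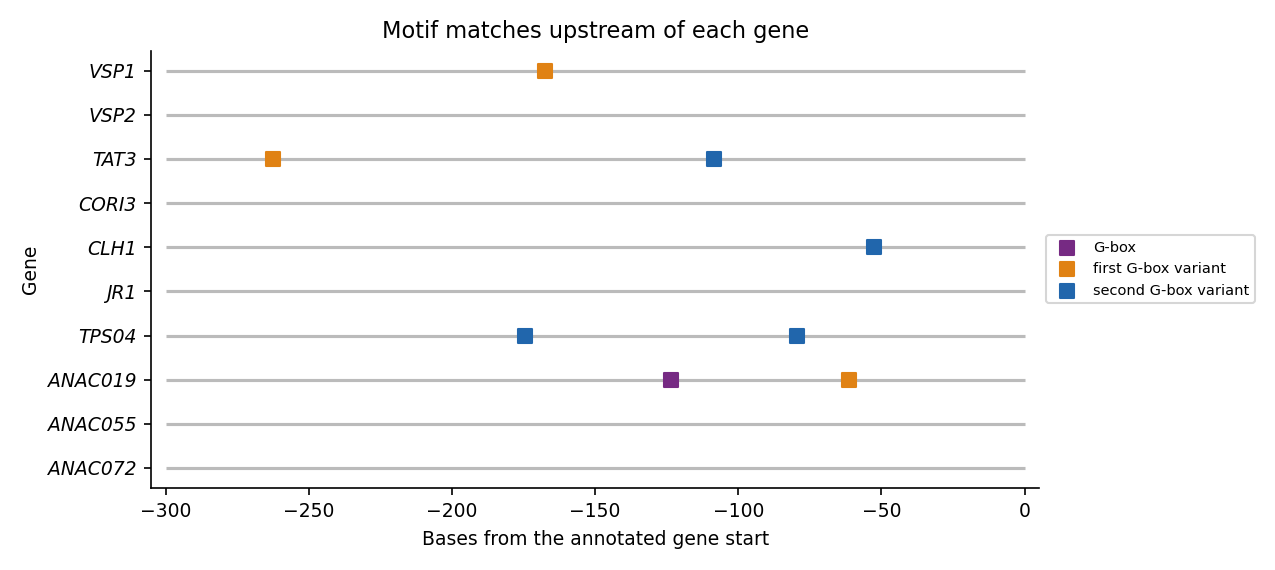
Position of each hexamer match in the 300 bases before the annotated start of the 10 genes, on an axis of bases from the start, with a square for each match. The first variant is AACGTG and the second is CACATG. The match nearest to a start lies 55 to 50 bases upstream of CLH1, and 5 of the 10 genes have no match.

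In untreated Col-0 shoots the 10 genes together took 0.117 and 0.138% of the counts of the libraries. Per kilobase of exon, VSP1 had the highest mean level at 284 ± 164 CPM (SD, n = 2), followed by CLH1 at 177 ± 21.7 and VSP2 at 165 ± 35.7 CPM per kilobase. The library values of these 3 genes overlapped, so their order is not set beyond the spread. JR1 at 93.4 ± 42.5 and CORI3 at 48.5 ± 16 CPM per kilobase came next. The enzyme genes TAT3 and TPS04 and the 3 NAC genes were lower, between 3.19 CPM per kilobase for TPS04 and 12.2 for ANAC019. In jazD, CLH1 was first at 790 ± 142 CPM per kilobase, and both of its libraries were above every library of the other 9 genes. The 10 genes took 0.428 and 0.33% of the counts in jazD and 0.155 and 0.114% in LNJ-OX, so the LNJ-OX share overlapped that of Col-0.

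**Figure D2:**
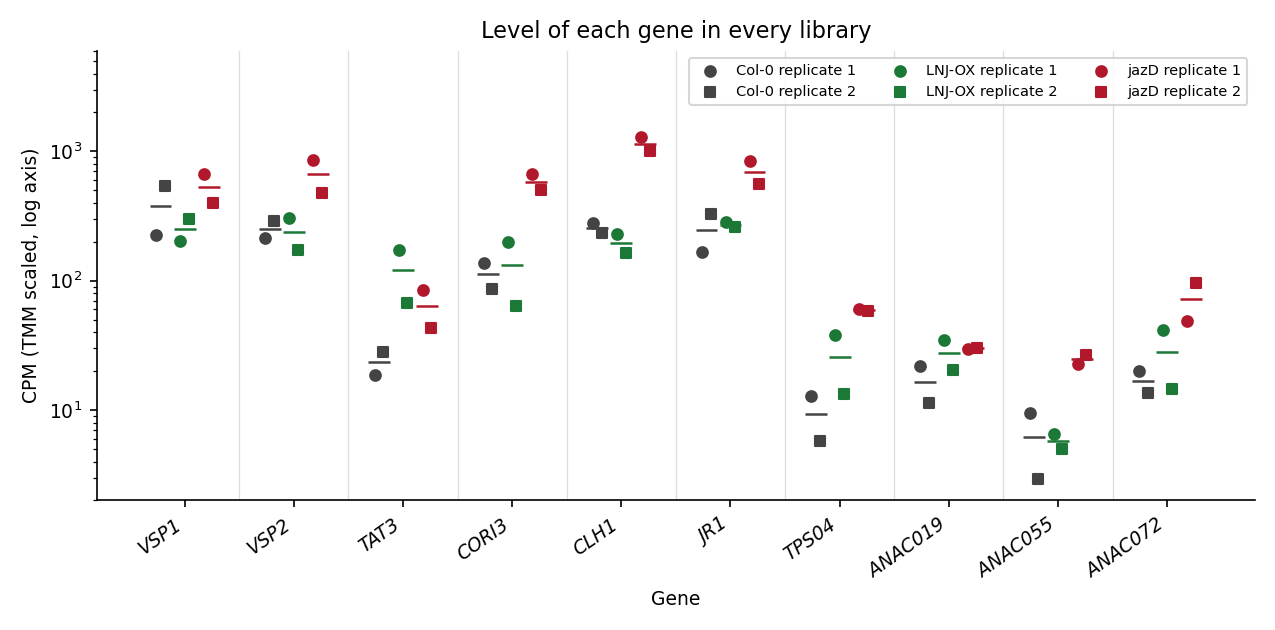
CPM of each gene on a log axis in all 6 libraries, with circles for replicate 1, squares for replicate 2 and short lines for the mean of a genotype. Both jazD libraries sit above both Col-0 libraries for all genes but VSP1, while the LNJ-OX libraries do so for TAT3 and TPS04.

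In jazD against Col-0, CLH1 was the 1 of the 10 genes called higher, against a background of 0.44% of all genes tested, and 0 were called lower, against 0.674%. At the looser threshold with a log2 fold change above 1, 6 of the 10 passed, beside 1.41% of all genes, namely CORI3, CLH1, JR1, TPS04, ANAC055 and ANAC072. At an unadjusted p under 0.05, 9 were higher and 0 were lower, beside 6.26% of genes higher and 8.59% lower. Both jazD libraries lay above both Col-0 libraries for 9 of the 10, beside 19.5% of genes, and below them for 0, beside 21.1%. The median log2 fold change of the 10 was 1.73, beside 0.0075 over all genes. DESeq2 called 7 of the 10 higher and limma-voom called 1. Over the alternatives, genes called higher among all genes tested ran from 13 to 480, so the edgeR share does not apply to these counts. The count of 6 at the looser threshold was 8 with DESeq2 or with no filter on low counts, 7 in a fit of the 4 libraries compared and 1 with glmTreat. The share of all genes passing the looser threshold was not counted under the alternatives, so these counts have no background beside them. Fewer passed without either Col-0 library or either jazD library, and more passed without either LNJ-OX library. All 10 log2 fold changes stayed above 0 with each library left out. That of VSP1 was near 0, at 0.0032 without Col-0 replicate 1 and 0.060 without jazD replicate 1.

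In LNJ-OX against Col-0, edgeR called 0 of the 10 genes higher, against a background of 0.837%, and 0 lower, against 0.585%. DESeq2 called 1 higher and 0 lower, and limma-voom called 0 in both directions. Over the alternatives, calls among all genes tested ran from 6 to 752 higher and from 5 to 646 lower. TAT3 passed the looser threshold, which 2.51% of all genes did, but not without either Col-0 library or without LNJ-OX replicate 1, and at an unadjusted p under 0.05 TAT3 and TPS04 were higher, beside 8.97% of genes, and 0 of the 10 were lower, beside 9.4%. Both LNJ-OX libraries lay above both Col-0 libraries for these 2 genes, beside 24% of genes, and below them for CLH1, beside 23.9%. The median log2 fold change of the 10 was 0.18, beside -0.0083 over all genes, and without LNJ-OX replicate 1 it was -0.26.

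The genotypes were also compared with each other, which tests the difference between the LNJ-OX and jazD changes directly. CLH1 was the 1 of the 10 genes called lower in LNJ-OX than in jazD, against a background of 0.332%, and 0 were called higher in edgeR, DESeq2 or limma-voom, against 0.449% in edgeR. At an unadjusted p under 0.05, 8 were lower, beside 5.41% of genes, and 0 were higher, beside 7.72%. At the looser threshold 3 of the 10 were lower, CLH1, CORI3 and ANAC055, beside 0.753% of genes. That count was 1, CLH1, without LNJ-OX replicate 2, jazD replicate 1 or jazD replicate 2, with library totals or with glmTreat, and it was 5 without LNJ-OX replicate 1 or with the replicate block, 6 with DESeq2 and 8 with no filter on low counts. The share of all genes passing the looser threshold was not counted under these alternatives. Both LNJ-OX libraries lay below both jazD libraries for 8 of the 10, beside 25% of genes, and above them for 0, beside 25.5%. TAT3 and ANAC019 were the others, and their libraries overlapped. The LNJ-OX and jazD comparisons with Col-0 share the same Col-0 libraries.

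**Figure D3:**
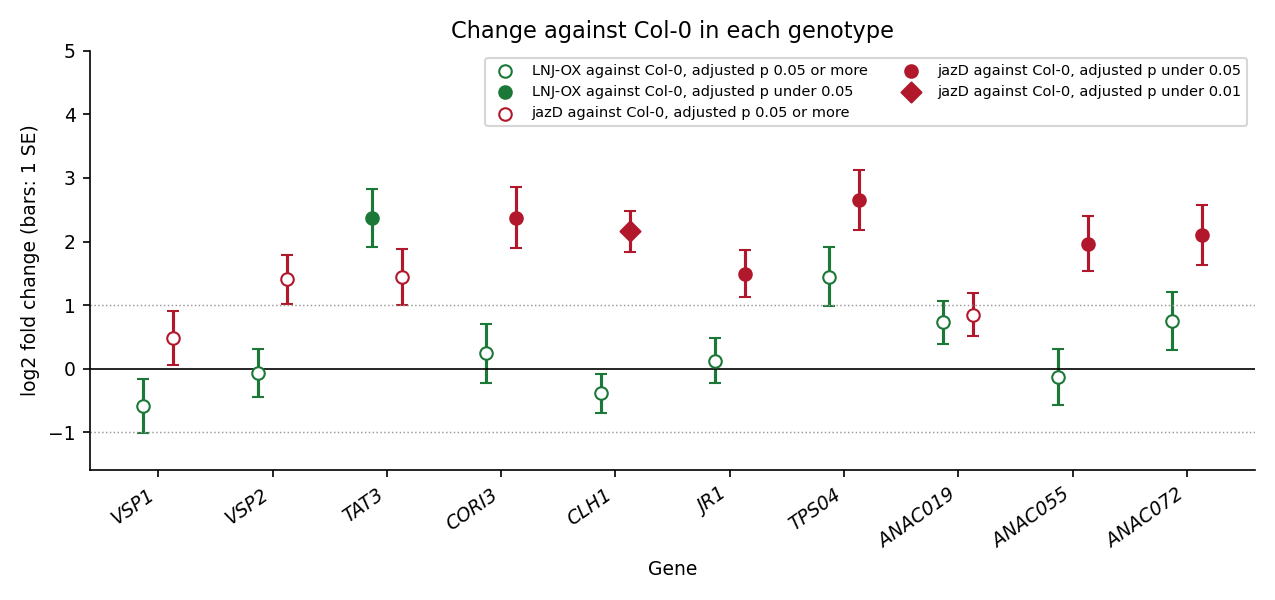
Log2 fold changes against Col-0 of the 10 genes in LNJ-OX (green) and jazD (red), with bars of 1 SE from the edgeR fit of all 6 libraries. Open circles have an adjusted p of 0.05 or more, filled circles are under 0.05 and the diamond is under 0.01. The jazD values lie between 0.48 for VSP1 and 2.65 for TPS04, and the LNJ-OX values between -0.59 for VSP1 and 2.37 for TAT3.

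VSP1 (AT5G24780, chromosome 5, 8507590 to 8509201, minus strand, TAIR10.1) and VSP2 (AT5G24770, chromosome 5, 8500468 to 8502224, minus strand) encode vegetative storage proteins, acid phosphatases that accumulate in wounded leaves and flowers, of which VSP2 acts against insects. VSP2 was at 212 and 289 CPM in Col-0, 306 and 173 CPM in LNJ-OX and 857 and 473 CPM in jazD. Both jazD libraries were above all of the others, and the LNJ-OX libraries lay on either side of Col-0. The log2 fold change was 1.41 (SE 0.38, adjusted p = 0.0736) in jazD and -0.065 (SE 0.38, adjusted p = 0.954) in LNJ-OX. VSP1 was at 225 and 536 CPM in Col-0, 203 and 302 CPM in LNJ-OX and 663 and 396 CPM in jazD. All 3 genotypes overlapped in VSP1, and the 2 Col-0 libraries differed 2.38-fold. The log2 fold change of VSP1 was 0.48 (SE 0.42, adjusted p = 0.731) in jazD and -0.59 (SE 0.42, adjusted p = 0.506) in LNJ-OX.

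These storage protein genes lie 5365 bases apart, and their coding sequences were 88.1% identical with a longest identical run of 54 bases. How reads that match both were counted is not given in the sources used here, so the split between them is uncertain. Per kilobase, VSP1 was 1.2 and 2.1 times the level of VSP2 in Col-0, 0.752 and 1.97 times in LNJ-OX and 0.877 and 0.95 times in jazD. The ratio was below 1 in both jazD libraries and above 1 in both Col-0 libraries, with LNJ-OX on both sides. In an exact permutation test, 2 libraries against 2 cannot give a two-sided p below 0.333.

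TAT3 (AT2G24850, chromosome 2, 10582074 to 10585216, minus strand) encodes a tyrosine aminotransferase that is induced by wounding and JA. TAT3 was at 18.8 and 28.2 CPM in Col-0, 174 and 67.6 CPM in LNJ-OX and 84.1 and 43.3 CPM in jazD. Every LNJ-OX and jazD library was above both Col-0 libraries, and it was the only one of the 10 whose mean was highest in LNJ-OX. The change in LNJ-OX was 5.17-fold, a log2 fold change of 2.37 (SE 0.46, adjusted p = 0.0152), which misses the calling threshold. In jazD the log2 fold change was 1.44 (SE 0.45, adjusted p = 0.117), and LNJ-OX and jazD differed by 0.93 (SE 0.44, adjusted p = 0.401) with overlapping libraries. Single libraries moved TAT3 across both thresholds. Without LNJ-OX replicate 2 it was called, with a log2 fold change of 2.90 and an adjusted p of 0.000595. It missed the looser threshold without LNJ-OX replicate 1 (log2 fold change 1.54, adjusted p = 0.0726), Col-0 replicate 1 (2.12, adjusted p = 0.0719) or Col-0 replicate 2 (2.69, adjusted p = 0.0518). Over all alternatives the adjusted p of this edgeR, DESeq2 or limma-voom comparison ran from 2.02e-13 to 0.106.

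A list of 12 genes that respond to touch or handling was compared beside TAT3. Their summed level was 174 and 196 CPM in Col-0, 665 and 577 CPM in LNJ-OX and 317 and 304 CPM in jazD, with none of the 12 at 0 in any library. TCH3 alone made up 401 and 372 CPM of the LNJ-OX sums. Of the 11 tested, 3 were called higher in LNJ-OX against Col-0, beside 0.837% of all genes tested. These were TCH3 (a calmodulin-like protein, log2 fold change 2.08), TCH4 (a cell wall enzyme, 3.10) and WRKY40 (a transcription factor, 1.84). In jazD edgeR called 0 higher, beside 0.44% of genes, DESeq2 called 1 and limma-voom 0. There 5 were higher at an unadjusted p under 0.05 in edgeR, beside 6.26% of genes. In LNJ-OX against Col-0, 8 of the 11 were higher at an unadjusted p under 0.05, beside 8.97% of genes. RRTF1 and CML38 had log2 fold changes of -0.060 and -0.10 there. The part of handling in the TAT3 values was not tested.

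CORI3 (AT4G23600, chromosome 4, 12310379 to 12313212, plus strand) belongs to the same aminotransferase family and encodes a cystine lyase induced by the bacterial JA mimic coronatine. CORI3 was at 138 and 85.8 CPM in Col-0, 201 and 63.7 CPM in LNJ-OX and 666 and 499 CPM in jazD. The jazD libraries were far above the rest, and the LNJ-OX libraries enclosed those of Col-0 and differed 3.15-fold between themselves. In jazD the change was 5.20-fold, a log2 fold change of 2.38 (SE 0.49, adjusted p = 0.0213), and in LNJ-OX the log2 fold change was 0.24 (SE 0.46, adjusted p = 0.836). LNJ-OX was below jazD by a log2 fold change of -2.14 (SE 0.48, adjusted p = 0.0493). The TAT3 and CORI3 coding sequences were 58% identical, with a longest shared run of 14 bases.

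CLH1 (AT1G19670, chromosome 1, 6803486 to 6805092, minus strand) encodes chlorophyllase 1, which removes the phytol tail of chlorophyll and is induced by JA and coronatine. CLH1 was at 280 and 235 CPM in Col-0, 231 and 163 CPM in LNJ-OX and 1295 and 1003 CPM in jazD. The genotypes did not overlap, with LNJ-OX lowest and jazD highest, although Col-0 replicate 2 and LNJ-OX replicate 1 were close. CLH1 rose 4.46-fold in jazD, a log2 fold change of 2.16 (SE 0.32, adjusted p = 0.00521), and was at -0.39 (SE 0.31, adjusted p = 0.557) in LNJ-OX. Between LNJ-OX and jazD the log2 fold change was -2.54 (SE 0.32, adjusted p = 0.00221), a 5.83-fold lower level in LNJ-OX. The direction held without each library in turn, but the jazD call was lost without any one of the Col-0 or jazD libraries, with an adjusted p of 0.0212 without Col-0 replicate 1, 0.0183 without Col-0 replicate 2, 0.0522 without jazD replicate 1 and 0.0205 without jazD replicate 2. The call between LNJ-OX and jazD was lost without LNJ-OX replicate 2 (adjusted p = 0.0272), jazD replicate 1 (0.0198) or jazD replicate 2 (0.0104). Over all alternatives in edgeR, DESeq2 and limma-voom the adjusted p ran from 6.25e-13 to 0.0522 in jazD and from 3.25e-18 to 0.0272 between LNJ-OX and jazD.

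JR1 (AT3G16470, chromosome 3, 5595282 to 5599224, minus strand) encodes a jacalin-related lectin, a sugar-binding protein first described as responsive to JA. JR1 was at 168 and 328 CPM in Col-0, 283 and 259 CPM in LNJ-OX and 840 and 556 CPM in jazD. The jazD libraries were the highest, and both LNJ-OX libraries lay between those of Col-0. In jazD the log2 fold change was 1.49 (SE 0.37, adjusted p = 0.0462), and in LNJ-OX it was 0.13 (SE 0.36, adjusted p = 0.893).

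TPS04 (AT1G61120, chromosome 1, 22523635 to 22528836, plus strand) encodes geranyllinalool synthase, the enzyme that starts the synthesis of a volatile homoterpene given off by attacked leaves. TPS04 was at 12.9 and 5.73 CPM in Col-0, 37.9 and 13.4 CPM in LNJ-OX and 60.1 and 58.6 CPM in jazD. The genotypes were ordered Col-0, LNJ-OX, jazD without overlap, although Col-0 replicate 1 and LNJ-OX replicate 2 were close. TPS04 had the largest jazD change of the 10, 6.28-fold with a log2 fold change of 2.65 (SE 0.47, adjusted p = 0.0121), and that in LNJ-OX was 1.45 (SE 0.46, adjusted p = 0.114). LNJ-OX and jazD differed by -1.20 (SE 0.44, adjusted p = 0.246).

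ANAC019 (AT1G52890, chromosome 1, 19696923 to 19698482, minus strand), ANAC055 (AT3G15500, chromosome 3, 5234457 to 5236196, plus strand) and ANAC072 (AT4G27410, chromosome 4, 13707192 to 13709170, minus strand), also named RD26, encode related NAC transcription factors that act downstream of MYC2 and in drought and abscisic acid responses. ANAC055 was at 9.51 and 2.91 CPM in Col-0, 6.52 and 4.99 CPM in LNJ-OX and 22.9 and 26.8 CPM in jazD. Both LNJ-OX libraries lay within the range of Col-0, which spanned 3.27-fold, and both jazD libraries were above it. ANAC072 was at 20 and 13.6 CPM in Col-0, 41.9 and 14.6 CPM in LNJ-OX and 48.6 and 96.8 CPM in jazD. It was again highest in jazD, and LNJ-OX replicate 2 fell within the Col-0 range. ANAC019 was at 21.7 and 11.4 CPM in Col-0, 34.7 and 20.5 CPM in LNJ-OX and 29.9 and 30.3 CPM in jazD. The LNJ-OX libraries of ANAC019 enclosed those of jazD, and 1 of them lay below the higher Col-0 library.

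The jazD change passed the looser threshold for ANAC055 (log2 fold change 1.97, SE 0.44, adjusted p = 0.0307) and ANAC072 (2.11, SE 0.47, adjusted p = 0.0313) and not for ANAC019 (0.85, SE 0.34, adjusted p = 0.248). The LNJ-OX changes were -0.13 on the log2 scale for ANAC055, 0.75 for ANAC072 and 0.73 for ANAC019, with adjusted p between 0.279 and 0.911. ANAC055 was lower in LNJ-OX than in jazD by a log2 fold change of -2.10 (SE 0.44, adjusted p = 0.035), ANAC072 had -1.36 (adjusted p = 0.195) and ANAC019 -0.12 (adjusted p = 0.923). The coding sequences of ANAC019 and ANAC055 were 75.9% identical, and those of ANAC072 were 62.4% identical to ANAC019 and 61.5% to ANAC055.

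The libraries of a genotype were not equally far apart. In LNJ-OX, replicate 1 was above replicate 2 for 9 of the 10 genes, all but VSP1, beside 53% of all genes tested, and 4 of the 10 were more than 2-fold apart, beside 6.62% of genes. These 4 were TAT3, CORI3, TPS04 and ANAC072. In Col-0, replicate 1 was higher for 6 of the 10, beside 49.8% of genes. VSP1, TPS04 and ANAC055 were more than 2-fold apart there, beside 11.6% of genes. In jazD, replicate 1 was higher for 7 of the 10, beside 49.7% of genes, and 0 of the 10 were more than 2-fold apart, beside 6.3% of genes. The labels give no batch, date or litter for the libraries.

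**Figure D4:**
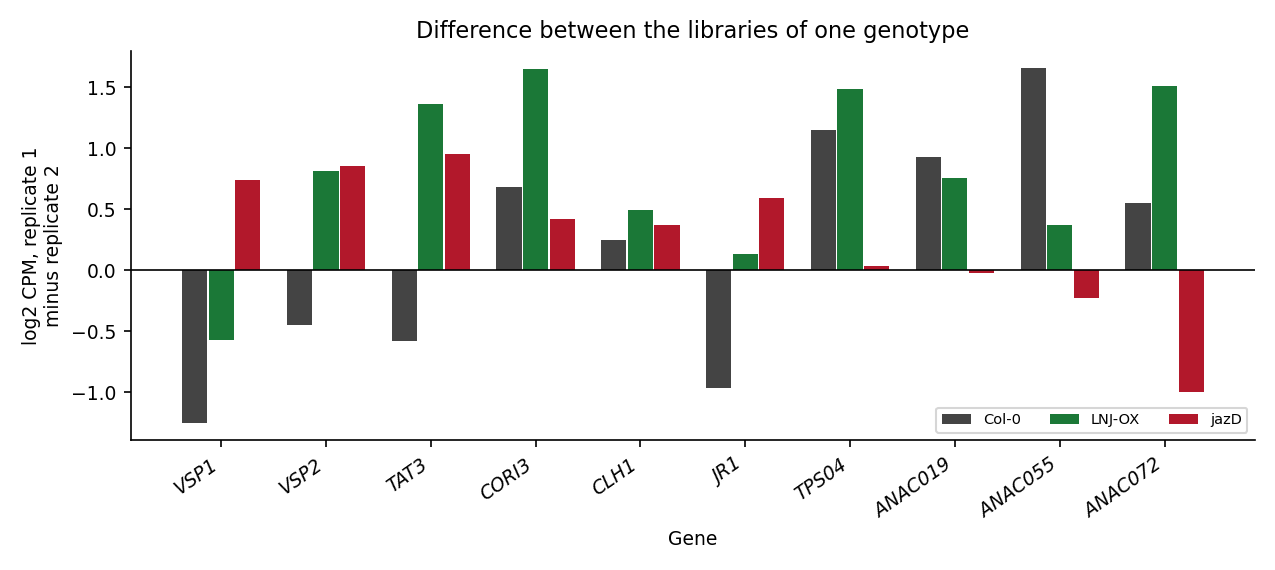
Log2 CPM of replicate 1 minus that of replicate 2 for each gene, as bars from 0 for Col-0 (grey), LNJ-OX (green) and jazD (red). The LNJ-OX bars are positive for all genes but VSP1 and reach 1.65 for CORI3, while in Col-0 they run from -1.25 for VSP1 to 1.65 for ANAC055.

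The regulators above these genes were compared next. MYC2, the main activator of the branch, was at 156 and 87.9 CPM in Col-0, 135 and 106 CPM in LNJ-OX and 251 and 184 CPM in jazD, where the log2 fold change was 0.83 (adjusted p = 0.238). MYC3 and MYC4, its partners, had means of 79.6 and 71.9 CPM in Col-0, 87 and 41.1 CPM in LNJ-OX and 92.7 and 59.5 CPM in jazD. MYC5, a further MYC factor, was at 6.30 and 5.92 CPM in Col-0, 1.58 and 1.205 CPM in LNJ-OX and 2.62 and 1.04 CPM in jazD. Both other genotypes lay below Col-0 in MYC5, with log2 fold changes of -2.12 (adjusted p = 0.0341) in LNJ-OX and -1.75 (adjusted p = 0.0843) in jazD. The list of 10 regulators also holds the receptor gene COI1, NINJA and the JAM repressors. Of these 10, edgeR called 0 in any of the 3 comparisons, beside 0.332% to 0.837% of all genes tested in a given direction. At an unadjusted p under 0.05, 3 were higher and 1 lower in jazD against Col-0, beside 6.26% and 8.59% of genes. In LNJ-OX against Col-0, 2 were higher and 2 lower, beside 8.97% and 9.4%. In LNJ-OX against jazD, 2 were lower, beside 5.41%. DESeq2 called 1 of them higher in jazD against Col-0 and no others, and limma-voom called 0 in the 3 comparisons. LOX2, a chloroplast lipoxygenase of JA synthesis, was at 708 and 600 CPM in Col-0, 1475 and 713 CPM in LNJ-OX and 3174 and 1169 CPM in jazD. Its jazD libraries differed 2.72-fold, and its log2 fold change there was 1.73 (adjusted p = 0.0879).

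Among 14 other JA or wound genes, 2 were called higher in jazD and 0 lower, beside 0.44% and 0.674% of all genes tested. These were MBP1, a myrosinase-binding protein of the jacalin type (log2 fold change 3.21, adjusted p = 0.0011), and LOX4, another lipoxygenase (1.87, adjusted p = 0.00519). In LNJ-OX against Col-0, edgeR called 0 of the 14, beside 0.837% of all genes tested higher and 0.585% lower. DESeq2 called 1 of the 14 lower and limma-voom called 0. At an unadjusted p under 0.05 in edgeR, 2 were higher and 2 lower there, beside 8.97% and 9.4% of genes. The median log2 fold change of the 14 was 1.02 in jazD and 0.22 in LNJ-OX. MBP1 and THI2.1, a thionin, were called lower in LNJ-OX than in jazD, with log2 fold changes of -3.08 and -1.73.

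Of 7 genes of the ERF branch, 4 were called higher in jazD against Col-0, beside 0.44% of all genes tested. These were the transcription factor gene ORA59 and the defensin genes PDF1.2A, PDF1.2b and PDF1.2c. In LNJ-OX against Col-0 these 3 defensin genes were called lower, beside 0.585% of all genes tested. ERF1 went the other way, at 0.63 and 0.376 CPM in Col-0 and 3.42 and 0.947 CPM in LNJ-OX. Its Col-0 values rest on 10 and 4 counts. ORA59 was at 2.14 and 2.44 CPM in Col-0 and 1.97 and 1.64 CPM in LNJ-OX. HEL and CHI-B, also in the list, overlapped between these genotypes. PDF1.2A was at 69.4 and 252 CPM in Col-0, 2.44 and 2.67 CPM in LNJ-OX and 4543 and 4239 CPM in jazD. The genotypes did not overlap in PDF1.2A, whereas VSP2 overlapped between Col-0 and LNJ-OX. The defensin genes are close copies, so their counts may be split between them.

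Relatives of the 10 genes were compared to see how far a family moved with its member. Of 17 such genes 16 were tested, and 3 were called higher in jazD, beside 0.44% of all genes tested. All 3 were jacalin-related lectins like JR1: JAL33 (log2 fold change 4.16, adjusted p = 0.00232), JAL34 (2.85, adjusted p = 0.0016) and JAL30 (3.04, adjusted p = 0.0016). JAL30 was at 17.6 and 31 CPM in Col-0, 58 and 34 CPM in LNJ-OX and 188 and 210 CPM in jazD, with no overlap between genotypes. In LNJ-OX against Col-0, edgeR called 0 of the 16, beside 0.837% of all genes tested higher and 0.585% lower. DESeq2 called 1 of the 16 in each direction and limma-voom called 0. At an unadjusted p under 0.05 in edgeR, 4 were higher and 2 lower there, beside 8.97% and 9.4% of genes. JAL30 was called lower in LNJ-OX than in jazD, with a log2 fold change of -2.11 (adjusted p = 0.00931).

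A list of 8 genes known as targets of NAC factors, among them genes of salicylic acid metabolism, was also compared. BSMT1, which methylates salicylic acid, was at 7.43 and 5.82 CPM in Col-0, 10.9 and 10.07 CPM in LNJ-OX and 131 and 157 CPM in jazD, and was called higher in jazD (log2 fold change 4.43, adjusted p = 1.94e-05). ICS1, the enzyme of salicylic acid synthesis, was at 19.2 and 24.3 CPM in Col-0, 137 and 132 CPM in LNJ-OX and 30.6 and 25.1 CPM in jazD, and was called higher in LNJ-OX (2.63, adjusted p = 0.00109). SAGT1, which adds glucose to salicylic acid, was called higher in LNJ-OX (1.83, adjusted p = 0.00735) and had 1.62 in jazD (adjusted p = 0.0131). The other 5 of these 8 genes, which include the chlorophyll breakdown genes NYE1, NYE2, NYC1 and PAO, were not called by edgeR in any of the 3 comparisons. Of all genes tested, edgeR called 0.44% higher and 0.674% lower in jazD against Col-0. The shares were 0.837% and 0.585% in LNJ-OX against Col-0, and 0.449% and 0.332% in LNJ-OX against jazD.

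The genes whose pattern over the 6 libraries was nearest to that of VSP2 were found among 13444 genes by the root mean square difference of centred log2 CPM. These were DHS1, an enzyme at the start of aromatic amino acid synthesis, at 0.174, the lectin gene JAL23 at 0.187, PME3, a pectin methylesterase, at 0.205, AIG2 at 0.225 and PAI2, an enzyme of tryptophan synthesis, at 0.229. JAL23 was at 210 and 316 CPM in Col-0, 275 and 227 CPM in LNJ-OX and 765 and 493 CPM in jazD. Within the 10 genes JR1 was nearest to VSP2, at 0.289, and TAT3 was at 1.11. Nearest to TAT3 were the chitinase gene CHI (AT2G43570) at 0.252, the glutathione transferase gene GSTF7 at 0.292, PMT6 at 0.318, the glutathione transferase gene GSTF2 at 0.339 and AT2G33830 at 0.346. CHI was at 41.3 and 56.5 CPM in Col-0, 343 and 197 CPM in LNJ-OX and 138 and 99.1 CPM in jazD, highest in LNJ-OX as TAT3 was. These are descriptions over 6 libraries that the genes share.

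Markers of flowers, pollen and roots were measured beside the 10 genes. The 7 floral organ markers summed to 106 and 130 CPM in Col-0, 68.3 and 130 CPM in LNJ-OX and 32.4 and 45.2 CPM in jazD, with none of the 7 at 0 in any library. The 7 tapetum and pollen markers summed to 136 and 101 CPM in Col-0, 17.1 and 89.3 CPM in LNJ-OX and 13.9 and 18.6 CPM in jazD, with AGP11 at 0 in LNJ-OX replicate 1. SEP2 (log2 fold change -1.85, adjusted p = 0.00777) and AGP11 (-5.08, adjusted p = 0.00729) were the 2 of these 14 markers called lower in jazD, beside 0.674% of all genes tested. At an unadjusted p under 0.05 all 7 floral organ markers and 5 of the 7 tapetum and pollen markers were lower there, beside 8.59% of genes. In LNJ-OX, AGP11 was the 1 called lower (-4.999, adjusted p = 0.00669), beside 0.585% of genes. The tapetum genes A9, AMS and MS2 had log2 fold changes of 1.25, 1.07 and 1.79 there and were not called. Their LNJ-OX libraries differed 3.51-, 4.24- and 4.15-fold. The means of AGP6, VGD1 and PPME1 went the other way. They were 20.3, 54.1 and 15.9 CPM in Col-0 and 2.70, 9.62 and 5.75 CPM in LNJ-OX. The LNJ-OX libraries of these genes differed 4.86-, 9.83- and 28.1-fold. Of the 4 root markers, EXPA18 was at 0 in all libraries and EXPA7 in 5 of 6. COBL9, which had too few counts to be tested, had 7 and 3 counts in Col-0, 4 and 9 counts in LNJ-OX and 1 and 2 counts in jazD. PYK10, a beta-glucosidase, was at 8.63 and 21.1 CPM in Col-0, 45.7 and 24.9 CPM in LNJ-OX and 99.2 and 173 CPM in jazD, where it was called higher (3.21, adjusted p = 0.00458). The part of flower, pollen or root tissue in the levels of the 10 genes was not tested.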

How the data were processed

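The deposited files hold read counts per gene, one file for each of 6 libraries, which the authors made with HTSeq 0.9.1; the submitters' processing notes also name Trim Galore 0.6.3, HISAT2 2.1.0, limma 3.38.3 and the TAIR10 build. The annotation and the strand setting are not given in the sources used here. The authors' tables of their own comparisons, with fold changes and p-values, were not used. One edgeR model (version 4.0.16 under R 4.3.3; TMM, filterByExpr, glmQLFit and glmQLFTest) was fitted to all 6 libraries, with a biological coefficient of variation of 0.232; the SE is the log2 fold change over the square root of F. Totals per library ran from 10164591 to 15003290, and p-values measure the spread between libraries of a group only. Libraries of a group differed by more than sampling noise (chi-square per degree of freedom 14.8 to 42.8). Alternatives were DESeq2 1.42.0, limma-voom 3.58.1, other factors, filters and thresholds, glmTreat, the 4 libraries compared, the replicate block and removal of each library. Coordinates and upstream sequence come from TAIR10.1 by locus identifier, not from the count files; proteins were not compared, and coding sequences were aligned with Biopython 1.88 instead. The procedure was also run on counts simulated with the fitted spread of these 6 libraries and changes of a single size, which leaves smaller changes untested. Besides the 10 genes, the text names list genes called in any comparison, MYC2, MYC3, MYC4 and LOX2, the 5 genes of at least 10 CPM nearest in pattern to VSP2 and to TAT3, and, chosen after their values were seen, AFP2, JAZ10, NYE1, NYE2, NYC1, PAO, COI1, NINJA, EXPA7, EXPA18, COBL9, MYC5, RRTF1, CML38, ERF1, HEL, CHI-B, A9, AMS, MS2, AGP6, VGD1 and PPME1. Members and lists were chosen with earlier results of these data known. The labels give 21 days and shoots without root; the study's methods give leaves and a slightly different age, and 1 jazD label is spelled jzaD.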

Additional observations from a re-analysis of the deposited data

Results flagged for a closer look

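These genes differed between LNJ-OX and jazD by the test of that difference itself, in edgeR with adjustment over all genes tested, so their changes against Col-0 differed too. Among the 10 genes this was CLH1, with a log2 fold change of -2.54. Of the other lists, lower in LNJ-OX were THI2.1 (-1.73), MBP1 (-3.08), ORA59 (-5.02), JAL30 (-2.11) and BSMT1 (-3.78), and ICS1 was higher (2.27). The defensin genes had -10.75 for PDF1.2A, -11.23 for PDF1.2b and -12.00 for PDF1.2c; PDF1.2b had 3 and 6 counts and PDF1.2c 4 and 4 counts in the LNJ-OX libraries, so the fitted sizes of those 2 are imprecise.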

How the results depend on the processing

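The count of the 10 genes called higher in jazD (1) was 8 with no filter on low counts, 7 with DESeq2, 4 in a fit of the 4 libraries compared, 5 with the replicate block, 6 at an adjusted p under 0.05, 0 with glmTreat and 0 to 5 when each library was left out. That in LNJ-OX (0) was 2 with no filter, 1 with DESeq2, 1 with the replicate block, 1 at an adjusted p under 0.05 and 0 to 2 on leaving libraries out, where the 2 came without LNJ-OX replicate 2. The count called lower in LNJ-OX than in jazD (1) was 7 with no filter, 5 with DESeq2, 2 in the 4 libraries compared, 3 with the replicate block, 3 at an adjusted p under 0.05, 0 with glmTreat and 0 to 2 on leaving libraries out. With library totals, 0 genes in place of 1 had both LNJ-OX libraries below Col-0. Over 21374 genes, the replicate 2 minus replicate 1 differences correlated at 0.0891 between Col-0 and LNJ-OX. The values were 0.0587 between Col-0 and jazD and -0.0028 between LNJ-OX and jazD. A value over all genes cannot tell whether libraries of the same number share a batch that affects fewer genes.

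The median log2 fold change of the 10 ran over single-library removals from -0.26 (without LNJ-OX replicate 1) to 0.82 in LNJ-OX against Col-0, from 1.57 to 1.87 in jazD and from -2.04 to -1.11 between LNJ-OX and jazD. Signs turned in LNJ-OX against Col-0 for VSP2 with library totals (0.034) and ANAC055 with limma-voom (0.016) and, on leaving libraries out, for VSP1 (-1.07 to 0.16), VSP2 (-0.52 to 0.29), CORI3 (-0.81 to 0.83), JR1 (-0.26 to 0.69), ANAC055 (-0.72 to 1.004) and ANAC072 (-0.20 to 1.30), and between LNJ-OX and jazD for ANAC019 (-0.55 to 0.20). No sign turned in jazD against Col-0 for any of the 10, although VSP1 fell to 0.0032 without Col-0 replicate 1 and to 0.060 without jazD replicate 1. Of 480 tests of single genes under alternatives, 402 kept direction and side of the threshold, 57 gained and 9 lost it, and the causes were not tested. Over all genes, calls in jazD against Col-0 ran from 13 to 480 higher and 19 to 830 lower, in LNJ-OX from 6 to 752 and 5 to 646, and between LNJ-OX and jazD from 19 to 596 and 30 to 343. With 2 libraries a group, SEs of 0.31 to 0.49 limit which changes could be seen.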
